A study of Homo sapiens with 2 samples.

Results

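The genes described here encode the proteins of the mitochondrial ribosome. Members were the protein-coding RefSeq genes of assembly GRCh38.p14 whose symbol is MRPL or MRPS followed by a digit, 77 of 19719 protein-coding gene records with a known strand. Of these, 49 carry an MRPL symbol, for the large subunit, and 28 an MRPS symbol, for the small subunit. They were read in 2 libraries of untreated MDA-MB-231, a human cell line from a triple-negative breast tumour, 1 library made with an antibody against PRMT6 and 1 with an antibody against PARP1. PRMT6 methylates arginine residues, including those of histones, and PARP1 attaches chains of ADP-ribose to proteins at damaged DNA and at promoters. The study asked which promoters both proteins occupy. Cells were grown without a treatment in both groups, and no genotype other than that of the line was given. The study describes CUT&Tag, in which an antibody directs a transposase to cut nearby chromatin, whereas the labels also describe adaptor ligation of immunoprecipitated DNA, so the library chemistry is uncertain. There were no replicates and no control library was analysed here, so no difference between PRMT6 and PARP1 was tested and every value describes these libraries.

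The mitochondrial ribosome translates the few mRNAs that the mitochondrial genome encodes, all for subunits of the respiratory chain and ATP synthase. Its RNA comes from mitochondrial DNA, but all of its proteins are encoded in the nucleus, made in the cytosol and imported. The small subunit decodes the mRNA and the large subunit joins amino acids. Some of the proteins have counterparts in bacterial ribosomes, and the others are found only in mitochondrial ribosomes.

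Each library is described by a list of peaks, stretches with more fragments than their surroundings, with 9080 peaks for PRMT6 and 11651 for PARP1. Read depth is not given by the lists. The score of a peak was taken, from its range, to be the −log10 of the p or q value of the peak caller. It was used only to rank peaks within their own list, where rank 1 is the highest score. A promoter peak is any peak that touches the window from 3 kb upstream to 3 kb downstream of a gene record's 5′ end. The submitters' notes name hg19, but the positions fitted GRCh38. With GRCh38 gene records 22 of the 77 members had a PRMT6 promoter peak, as did 18.3% of all coding genes, and 28 had a PARP1 promoter peak, as did 22.5% of all. With GRCh37 records only 5 and 3 of 78 members did. Over all peaks, 30.1% of the PRMT6 and 29.5% of the PARP1 list lay within 1 kb of a coding gene's 5′ end in GRCh38. In GRCh37 4.04% and 3.94% did. Coordinates are therefore given in GRCh38.

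Sequences are printed for the best-ranked members with peaks of both proteins, 3 of each subunit, because the promoter is where the peaks lie. All were taken from RefSeq, GRCh38.p14, and run 5′ to 3′ on the strand of the gene, with 170 bases before the listed start and 30 transcribed bases. Capitals mark short words named for the factor or element known to use them, on either strand: GCGCATGC for NRF1, CCGGAAG for the ETS family, AAGATGG for YY1, CCAAT for NF-Y, GGGCGG for the SP and KLF factors, TATAAA for the TATA box and ACTACAACT for ZNF143. The last word was added after the MRPL24 promoter had been read.
MRPL24, chr1:156741059-156741258, minus strand: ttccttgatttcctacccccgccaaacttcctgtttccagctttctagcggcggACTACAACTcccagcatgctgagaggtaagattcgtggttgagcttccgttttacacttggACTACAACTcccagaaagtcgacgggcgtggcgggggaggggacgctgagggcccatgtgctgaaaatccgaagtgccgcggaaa
MRPL38, chr17:75904855-75905054, minus strand: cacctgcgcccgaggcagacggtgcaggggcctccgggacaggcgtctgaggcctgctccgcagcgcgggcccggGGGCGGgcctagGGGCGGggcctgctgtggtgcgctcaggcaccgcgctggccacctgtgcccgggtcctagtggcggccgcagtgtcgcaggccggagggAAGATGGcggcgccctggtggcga
MRPL4, chr19:10251781-10251980, plus strand: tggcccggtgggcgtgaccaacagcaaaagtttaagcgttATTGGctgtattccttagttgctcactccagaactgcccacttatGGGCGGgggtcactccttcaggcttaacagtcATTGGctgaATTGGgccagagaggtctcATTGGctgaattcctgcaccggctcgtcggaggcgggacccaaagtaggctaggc
MRPS18B, chr6:30617670-30617869, plus strand: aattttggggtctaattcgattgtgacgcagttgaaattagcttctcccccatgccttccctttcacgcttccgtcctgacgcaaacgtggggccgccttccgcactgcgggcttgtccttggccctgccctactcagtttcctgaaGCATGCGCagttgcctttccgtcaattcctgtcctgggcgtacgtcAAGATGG
MRPS12, chr19:38930774-38930973, plus strand: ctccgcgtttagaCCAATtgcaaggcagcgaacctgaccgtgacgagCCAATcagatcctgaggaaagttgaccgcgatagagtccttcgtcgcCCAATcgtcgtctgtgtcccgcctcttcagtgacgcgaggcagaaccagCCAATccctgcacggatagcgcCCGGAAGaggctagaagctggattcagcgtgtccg
MRPS16, chr10:73252615-73252814, minus strand: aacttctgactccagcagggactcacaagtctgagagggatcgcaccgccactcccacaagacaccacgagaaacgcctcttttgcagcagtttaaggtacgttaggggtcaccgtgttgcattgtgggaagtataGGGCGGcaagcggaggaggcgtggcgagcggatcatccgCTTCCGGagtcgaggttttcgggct
The MRPL24 stretch holds ACTACAACT at positions -116 and -55, counted from 0 at the first transcribed base. MRPL38 and MRPS18B hold AAGATGG within their first transcribed bases. MRPL4 and MRPS12 each hold 4 copies of CCAAT, on the opposite strand in MRPL4 and on the gene's own strand in MRPS12. A word is a description of the letters and shows no factor at the site.

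Promoter peaks were found at more of the members than of all protein-coding genes. PRMT6 peaks lay at 22 of 77 members, 28.6% (95% exact binomial interval 18.8% to 40%), against 18.3% of all 19719 protein-coding genes. PARP1 peaks lay at 28 members, 36.4% (25.7% to 48.1%), against 22.5%. Peaks of both lists lay at 14 members, 18.2% (10.3% to 28.6%), against 13.4%, a background that this interval includes. The PRMT6 interval included the share of all coding genes once only the higher-scoring 50% of peaks were kept (20.8%, 12.4% to 31.5%, against 13.4%) or the peaks of the smallest width were left out (20.8%, 12.4% to 31.5%, against 13.2%). The PARP1 interval included it with the higher-scoring 50% (18.2%, 10.3% to 28.6%, against 14%) and with the list shortened to the 9080 best peaks (27.3%, 17.7% to 38.6%, against 19.2%). Intervals here and throughout are Clopper-Pearson intervals, treat genes as independent and cover counting error only. A further 8 members had a PRMT6 peak only, 14 had a PARP1 peak only, and 41 had neither.

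Most of the PRMT6 members were also PARP1 members, though the overlap was no larger than among other genes. The 14 members with both peaks were 63.6% of those with a PRMT6 peak and 50% of those with a PARP1 peak. Over all protein-coding genes the shares were 73.2% and 59.5%. In 13 of the 14 (92.9%) the PRMT6 and PARP1 peaks overlapped by at least 1 bp, against 96.5% of all coding genes with both peaks. The exception was MRPL18, whose PARP1 peak spanned the 5′ end while its PRMT6 peak began 419 bp downstream.

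Member promoters differed from all coding promoters in base composition. A CpG-rich promoter, defined after the data had been seen as at least 50% GC with an observed over expected CpG ratio of at least 0.6, was carried by 65 of the 69 members with a RefSeq promoter entry (94.2%), against 63.1% of all coding genes with one. Among CpG-rich promoters alone, PRMT6 peaks lay at 30.8% of members (19.9% to 43.4%) and 26.3% of all coding genes. PARP1 peaks lay at 36.9% of members (25.3% to 49.8%) and 31.8% of all. Peaks of both lists lay at 18.5% of members (9.92% to 30%) and 19.6% of all. Within this class each interval included the value of all coding genes. The 4 members with other promoters had PRMT6 peaks at 50% (6.76% to 93.2%) and PARP1 peaks at 75% (19.4% to 99.4%). Their share with both was 50% (6.76% to 93.2%). All coding genes of that kind gave 7.56%, 10.2% and 5.15%, of which only the PRMT6 value lay inside the interval. Whether base composition bears on the shares was not tested.

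The shares of the 2 subunits lay close to each other. PRMT6 peaks lay at 13 of 49 large subunit genes, 26.5% (14.9% to 41.1%), and at 9 of 28 small subunit genes, 32.1% (15.9% to 52.4%). PARP1 peaks lay at 18 large subunit genes, 36.7% (23.4% to 51.7%), and at 10 small subunit genes, 35.7% (18.6% to 55.9%). Both peaks lay at 9 large subunit genes, 18.4% (8.76% to 32.0%), and at 5 small subunit genes, 17.9% (6.06% to 36.9%). The intervals overlapped over most of their length, so a difference between the subunits was not detectable with this number of genes. Over all coding genes the shares were 18.3% for PRMT6, 22.5% for PARP1 and 13.4% for both. Only the PARP1 interval of the large subunit left out its value.

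The shares of members with and without a bacterial counterpart stood in opposite order in the 2 subunits for PRMT6, and by a narrow margin for PARP1. Over all coding genes the shares were 18.3% and 22.5%. In the large subunit, 5 of 30 genes with a bacterial counterpart had a PRMT6 peak (16.7%, 5.64% to 34.7%) and 8 of 19 mitochondrial ones did (42.1%, 20.3% to 66.5%). In the small subunit the order was turned, with 7 of 16 (43.8%, 19.8% to 70.1%) against 2 of 12 (16.7%, 2.09% to 48.4%). The PRMT6 intervals overlapped in both subunits. PARP1 peaks lay at 30% of large subunit genes with a counterpart (14.7% to 49.4%) and 47.4% of those without (24.4% to 71.1%). In the small subunit they lay at 6 of 16 (37.5%, 15.2% to 64.6%) and 4 of 12 (33.3%, 9.92% to 65.1%), nearly equal shares. The PARP1 intervals overlapped in both subunits as well. Over both subunits PRMT6 peaks lay at 26.1% of the 46 members with a counterpart and 32.3% of the 31 without, and PARP1 peaks at 32.6% and 41.9%.

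**Figure D1:**
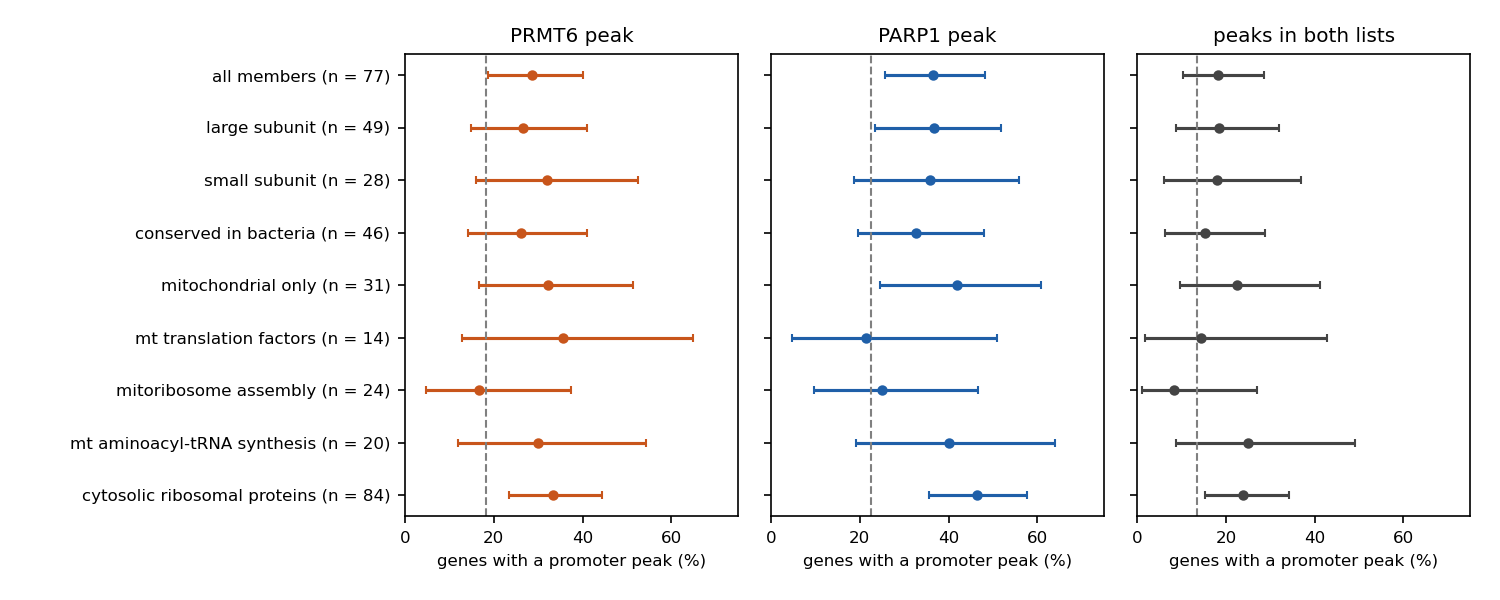
Percent of genes with a promoter peak of PRMT6, of PARP1 and of both lists, for the members, their subsets and related gene lists. Points are shares, bars are 95% exact binomial intervals, and dashed lines are the shares over all protein-coding genes, 18.3%, 22.5% and 13.4%. Large and small subunit intervals overlap in every panel.

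The large subunit members with both peaks were led by MRPL24, MRPL38, MRPL4, MRPL54 and MRPL45, ordered by the mean of their PRMT6 and PARP1 ranks. MRPL24 encodes a protein of the large subunit with a bacterial counterpart. Its PRMT6 peak at chr1:156741160-156741631 ranked 992 of 9080 with a score of 10.45. Its PARP1 peak at chr1:156741004-156741473 ranked 2396 of 11651 with a score of 9.46. Both lay over 1 kb downstream of the 5′ end of the record, beside the listed RefSeq start 1628 bp into it, which the PARP1 peak spanned and the PRMT6 peak did not reach.

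MRPL38, a protein found only in mitochondrial ribosomes, had the best-ranked PRMT6 peak of any member. That peak, at chr17:75904788-75905313, spanned the start and ranked 579 with a score of 12.61. The PARP1 peak at chr17:75904946-75905399 ranked 3800 with a score of 7.82 and ended 62 bp upstream of the start. At MRPL4, which has a bacterial counterpart that lines the exit tunnel, both peaks spanned the start. The PRMT6 peak at chr19:10251650-10252046 ranked 2073 and the PARP1 peak at chr19:10251782-10252163 ranked 2601.

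MRPL54 and MRPL45 encode mitochondrial ribosome proteins without a bacterial counterpart, and MRPL45 sits by the tunnel exit and holds the ribosome at the inner membrane. The MRPL54 PRMT6 peak at chr19:3762636-3763153 ranked 1299 and spanned the start, with the PARP1 peak at chr19:3762734-3762972 inside it at rank 5654. At MRPL45 the order was turned. Its PARP1 peak at chr17:38296799-38297125 ranked 1672, while its PRMT6 peak at chr17:38296670-38297242 ranked 6841 and reached across the start. The other large subunit members with both peaks were MRPL11, at the base of the stalk that binds translation factors, MRPL18, MRPL40 and MRPL57.

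The small subunit members with both peaks were MRPS18B, MRPS12, MRPS16, MRPS23 and MRPS24. MRPS18B belongs to a small family of human proteins related to a single bacterial protein, and another of the family, MRPS18C, was counted here as the bacterial counterpart. It had 2 peaks in each list. Its PARP1 peak at chr6:30617329-30617889 spanned the start and ranked 1481 with a score of 11.39. Its better PRMT6 peak, at chr6:30617154-30617488, ranked 1778 and held the start of the divergent neighbour PPP1R10, a regulatory subunit of protein phosphatase, while the PRMT6 peak at chr6:30617568-30617886, over the MRPS18B start, ranked 4757.

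MRPS12 lies at the decoding centre of the small subunit and shares its promoter region with SARS2, the mitochondrial seryl-tRNA synthetase. The PRMT6 peak at chr19:38930253-38930799 ranked 2674 and held the SARS2 start but ended 145 bp before that of MRPS12. The PARP1 peak at chr19:38930758-38930959 ranked 2894 and held both starts, and a second PARP1 peak lay at chr19:38930335-38930534 with rank 9951. MRPS16, a conserved protein in which mutations cause a respiratory chain disorder, had a peak of each list over its start. The PRMT6 peak at chr10:73252490-73252817 ranked 1221 and the PARP1 peak at chr10:73252546-73252892 ranked 6943.

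MRPS23, found only in mitochondrial ribosomes, had a PRMT6 peak at chr17:57850128-57850415 of the smallest width of the list, 288 bp, with rank 5468. Its PARP1 peak at chr17:57850007-57850351 ranked 3238 and spanned the start. MRPS24, the counterpart of a bacterial protein at the mRNA entry channel, had the weakest pair of any member by mean rank. There the PRMT6 peak at chr7:43869442-43869804 ranked 4835 and the PARP1 peak at chr7:43869665-43869880 ranked 9402.

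Members with 1 kind of peak came from both subunits. Those with a PRMT6 peak only were MRPL1, MRPL41, MRPL42, MRPL49, MRPS7, MRPS10, MRPS17 and MRPS18C. Their ranks ran from 1656 at MRPS10 to 8171 at MRPS17. Those with a PARP1 peak only were MRPL9, MRPL17, MRPL30, MRPL32, MRPL33, MRPL48, MRPL50, MRPL51, MRPL58, MRPS2, MRPS14, MRPS27, MRPS28 and MRPS31. Among them MRPL50 had the best-ranked PARP1 peak of any member, rank 1129 with a score of 12.47, and MRPS27, which carries RNA-binding repeats, followed at rank 1578. MRPL58, a peptidyl-tRNA hydrolase built into the large subunit, and MRPS2 had the weakest, both at rank 10721 with a score of 4.20.

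Member peaks sat close to the 5′ end but were of middling score. The centre of the best peak lay within 500 bp of the 5′ end in 19 of 22 PRMT6 members (86.4%) and in 25 of 28 PARP1 members (89.3%), against 78.4% and 78.1% of all coding genes with a promoter peak. PRMT6 centres lay upstream of the 5′ end in all 9 small subunit genes with a peak, in 7 of 13 of the large subunit and in 2469 of 3600 coding genes. PARP1 centres did so in 7 of 10, 10 of 18 and 3036 of 4430. The median score percentile within the list was 66.1 for PRMT6 members and 71.8 for all coding genes with a PRMT6 promoter peak. For PARP1 it was 50.1 and 62.1. Only MRPL38 stood in the top 10% of PRMT6 scores (4.55% of the 22 members, against 19.8% of all coding genes with a peak), and only MRPL50 in that of PARP1 (3.57% against 14.9%).

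**Figure D2:**
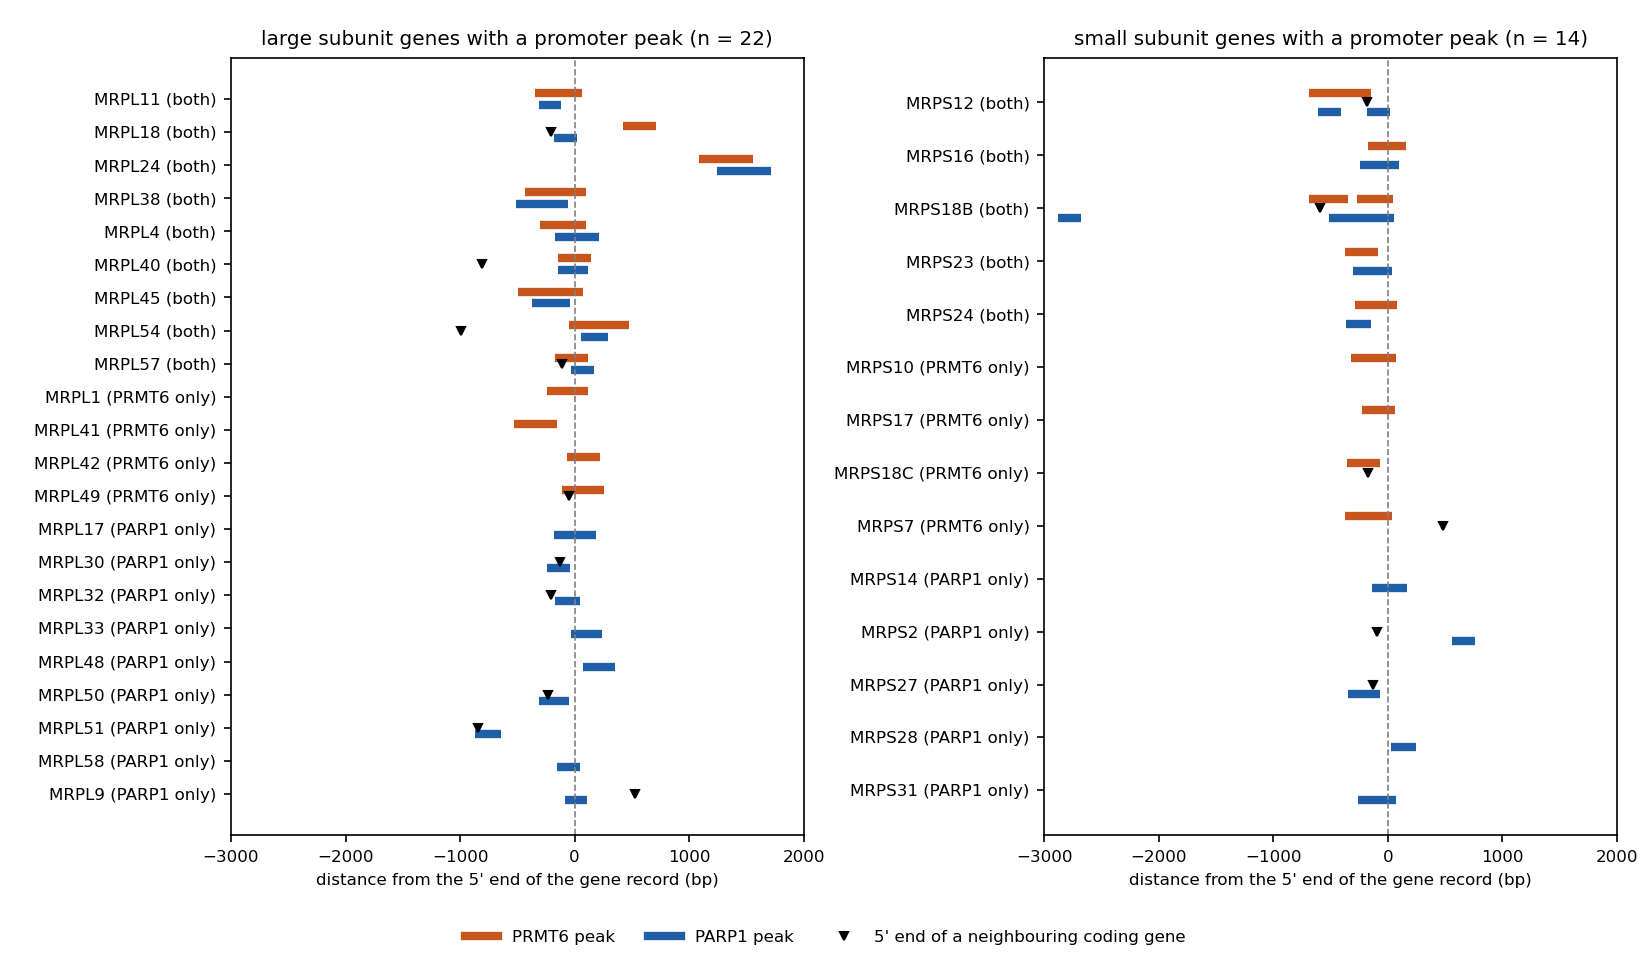
Promoter peaks of the 36 members with a peak, as bars of true width against distance from the 5′ end of the gene record in bp, for the large (left) and small (right) subunit. PRMT6 peaks are orange, PARP1 peaks blue, and triangles mark 5′ ends of neighbouring protein-coding genes within 1 kb. Most bars touch or flank the dashed line at 0, while both MRPL24 peaks lie over 1 kb downstream.

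**Figure D3:**
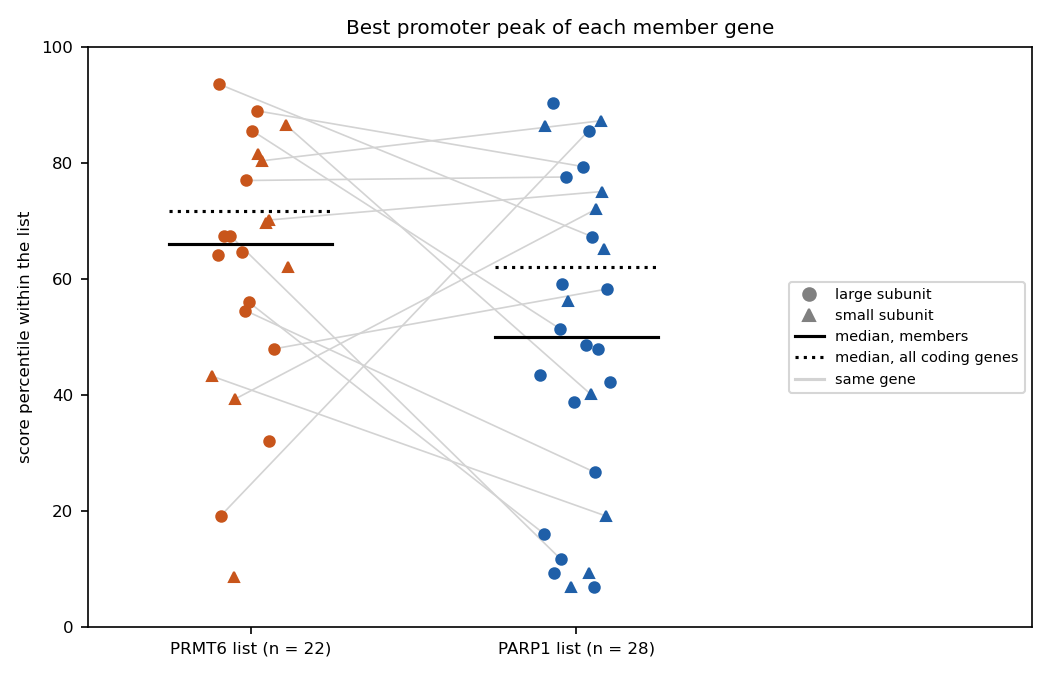
Score percentile within its list of the best promoter peak of each member, for PRMT6 (22 members) and PARP1 (28 members). Circles are large and triangles small subunit genes, grey lines join the 14 members with both peaks, and sideways scatter is for legibility. Member medians (solid, 66.1 and 50.1) lie below those of all coding genes with a peak (dotted, 71.8 and 62.1).

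The member at the edge of the window was MRPS18B, with a second PARP1 peak whose nearest base was 2678 bp from the 5′ end. MRPL35 lay just outside, with peaks 3620 bp (PRMT6, rank 961) and 3669 bp (PARP1, rank 3926) away at the start of IMMT, which encodes a protein that organises the cristae. MRPL52 followed, with a PARP1 peak 4796 bp away. For most of the 41 members without a promoter peak the nearest peak was far away, with a median distance of 63045 bp for PRMT6 and 46438 bp for PARP1. Distances ran up to 868676 bp, at MRPS9 in the PRMT6 list.

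MRPL34 depends on which start is read. MRPL34 encodes a protein with a bacterial counterpart, and the 5′ end of its record had no peak within 3 kb. A RefSeq start 13080 bp further on lay inside a PRMT6 peak at chr19:17305397-17305892, rank 176 with a score of 18.50, and inside a PARP1 peak at chr19:17305432-17305895, rank 759 with a score of 14.53. Both ranks were better than that of any member counted above. With all listed start sites PRMT6 peaks lay at 23 members (29.9%, against 19.6% of all coding genes under the same rule). PARP1 peaks lay at 29 (37.7% against 24.1%) and both at 15 (19.5% against 14.4%). MRPL34 was the only member that changed. Its promoter is printed for that reason, chosen after its values were seen, with MRPS11, whose start is shared with another member and has no peak, as a contrast.
MRPL34, chr19:17305483-17305682, plus strand: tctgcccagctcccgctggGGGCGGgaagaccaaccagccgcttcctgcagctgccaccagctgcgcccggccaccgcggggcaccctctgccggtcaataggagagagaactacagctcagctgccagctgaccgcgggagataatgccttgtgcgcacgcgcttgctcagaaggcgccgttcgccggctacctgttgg
MRPS11, chr15:88467538-88467737, plus strand: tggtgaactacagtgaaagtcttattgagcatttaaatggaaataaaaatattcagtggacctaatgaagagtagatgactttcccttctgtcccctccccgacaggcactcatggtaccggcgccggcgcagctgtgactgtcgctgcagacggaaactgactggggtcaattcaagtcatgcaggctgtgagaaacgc
The MRPL34 stretch holds GGGCGG at position -151 and the MRPS11 stretch holds none of the words.

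Many members share their start region with another gene. The 5′ end of another protein-coding gene lay within 1 kb at 30 of 77 members (39.0%), against 2969 of 19719 genes (15.1%). The neighbour ran in the opposite direction in 29 of the 30. The exception was MRPS6 with SLC5A3, whose records share a 5′ end. The distance between starts had a median of 191.5 bp and ran from 0 to 990 bp. Some partners serve mitochondria too, such as NDUFS6, a complex I subunit, 27 bp from MRPL36, and TWNK, the mitochondrial DNA helicase, 46 bp from MRPL43, and neither pair had a promoter peak.

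Peaks were also counted apart for members that share a start region and those that do not. Of the 30 sharing members 9 (30%, 14.7% to 49.4%) had a PRMT6 peak and 13 (43.3%, 25.5% to 62.6%) a PARP1 peak, against 34.2% and 42.4% of all sharing genes. Of the 47 other members 13 (27.7%, 15.6% to 42.6%) had a PRMT6 peak and 15 (31.9%, 19.1% to 47.1%) a PARP1 peak, against 15.4% and 18.9% of all genes that share no start region. At a shared region a peak cannot be assigned to 1 gene. Of the 10 PRMT6 peaks at such regions, 3 held the partner's start without the member's, at MRPS12, MRPS18B and MRPS18C. Of the 15 PARP1 peaks there 4 did so, at MRPL30, MRPL50, MRPL51 and MRPS27, among them both of the best-ranked PARP1-only members. A peak held both starts at MRPL49 with FAU, which encodes a cytosolic ribosomal protein, and at MRPL57 with SKA3, a kinetochore gene, in the PRMT6 list, and at MRPS12 with SARS2 in the PARP1 list.

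MRPL46 and MRPS11 join the subunits, since they start 320 bp apart in opposite directions. Neither had a promoter peak. The nearest PRMT6 peak lay 307007 bp from MRPS11 and the nearest PARP1 peak 171112 bp away.

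The member promoters also shared sequence words that the choice of members did not use. Over 300 bases (250 before to 50 after the start), CCGGAAG was found on either strand in 29 of 69 member promoters (42.0%), against 14.2% of 15842 coding promoters. AAGATGG was found in 23 (33.3%) against 6.36%. GCGCATGC was found in 6 (8.70%) against 4.28%. CCAAT was found in 29.0% against 36.4%, GGGCGG in 59.4% against 58.3% and TATAAA in 2.90% against 9.75%. ACTACAACT, which was picked from the MRPL24 promoter, was found in 1 other member, MRPL50, and in 0.928% of all coding promoters. No member promoter held CCGGAAG and AAGATGG in overlapping positions, and only 5 of the 15842 coding promoters did.

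AAGATGG often lay just after the start. It was found on the gene's own strand within the first 40 transcribed bases in 16 member promoters (23.2%), against 2.47% of all coding promoters. These letters include ATG, so some may be the start codon. CCGGAAG or AAGATGG was found in 43 members (62.3%), against 19.3% of all coding promoters.

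The share with AAGATGG was highest in the members with both peaks. It was found in 7 of 14 members with both peaks (50%), in 8 of 21 with 1 peak (38.1%) and in 8 of 34 with none (23.5%). CCGGAAG was found in 42.9%, 38.1% and 44.1% of these classes, with no order. Among all coding promoters with both peaks CCGGAAG was found in 19.0% and AAGATGG in 8.11%, below the members with and without peaks alike. CCAAT and GGGCGG were found in 49.7% and 75.9% of those promoters, above the 21.4% and 64.3% of the 14 members with both peaks. These shares rest on small classes and were not tested.

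**Figure D4:**
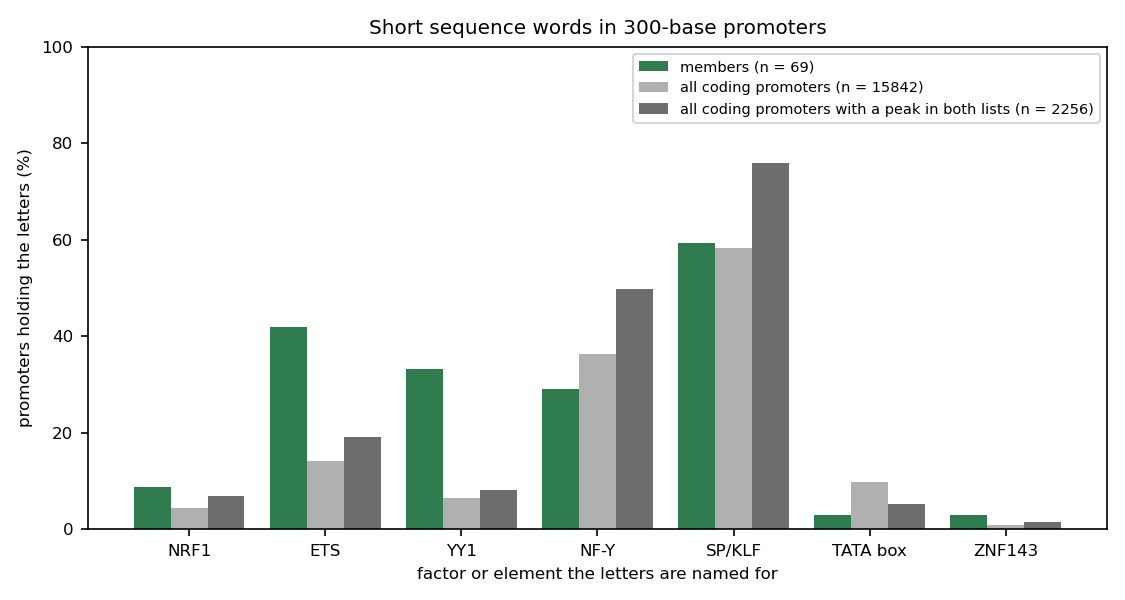
Percent of 300-base promoters that hold each short word on either strand, for 69 members (green), all 15842 coding promoters (light grey) and the 2256 coding promoters with peaks of both lists (dark grey). The ETS and YY1 words are more common in members (42.0% and 33.3%) than in either other set, and the NF-Y word is less common (29.0%).

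Promoter peaks were also counted at other genes of mitochondrial translation. The shares of all coding genes to read them against are again 18.3% for PRMT6, 22.5% for PARP1 and 13.4% for both. Of 14 translation factors 5 had a PRMT6 peak (35.7%), 3 a PARP1 peak (21.4%) and 2 both (14.3%), namely TUFM, the elongation factor that delivers aminoacyl-tRNA (ranks 3884 and 4289), and MTRFR, a ribosome rescue factor (4789 and 2466). Of 20 genes for charging mitochondrial tRNAs 6 had a PRMT6 peak (30%), 8 a PARP1 peak (40%) and 5 both (25%). Among them were EARS2 (ranks 4181 and 1116) and SARS2 (2674 and 2894), which charge glutamate and serine tRNAs. The SARS2 peaks are those already counted for MRPS12. Of 24 genes for assembly of the mitochondrial ribosome 4 had a PRMT6 peak (16.7%), 6 a PARP1 peak (25%) and 2 both (8.33%), shares close to or below those of all coding genes. The 2 with both were TFB1M, an rRNA methyltransferase (ranks 945 and 2175), and METTL15, another (3592 and 1635). Of 5 mitochondrial ribosome proteins with other symbols PTCD3 had both peaks and AURKAIP1 a PRMT6 peak only.

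Cytosolic ribosomal protein genes gave a comparison with the other ribosome of the cell. PRMT6 peaks lay at 28 of 84 (33.3%, 23.4% to 44.5%), PARP1 peaks at 39 (46.4%, 35.5% to 57.6%) and both at 20 (23.8%, 15.2% to 34.3%). Each share was above that of the mitochondrial members, and each interval overlapped that of the members.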

How the data were processed

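CUT&Tag peaks of PRMT6 and PARP1 in MDA-MB-231 cells were read from 1 list per library. The deposited columns give chromosome, start, end and a score, which by its range is the −log10 of the p-value or q-value of the peak caller; which of them, the calling thresholds and any control library are not given in the sources used here. The authors called peaks separately in each library, and the submitters' processing notes name CASAVA 1.4, Bowtie 0.12.8, MACS, MACS2 and hg19. Read depth is not given by the lists, so precision rests on the number of genes. Listed starts were raised by 1 to count from 1.

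Gene records came from RefSeq, GRCh38.p14. Strand came from the RefSeq promoter table for 15843 coding genes and otherwise from the GENCODE gene of the same name (3876), and 318 coding genes without a strand were left out. Promoter sequence was matched by gene for 69 of 77 members, at the listed start nearest to the record's 5′ end. That start lay 144 bp into the record at MRPL14, 378 bp at MRPL39, 1597 bp at MRPL36, 1628 bp at MRPL24 and 6609 bp at MRPL44. The MRPL44 sequence thus lies outside the 3 kb window in which its peaks were counted. The entries not matched were MRPL2, MRPL10, MRPL13, MRPL15, MRPL21, MRPL23, MRPL35 and MRPS28. No genome of the same build was used, so peaks themselves were not read as sequence. Overlaps were computed with Python 3.11.15, numpy 2.4.6, pandas 2.3.3 and scipy 1.17.1, checked against bedtools 2.31.1 and tested on simulated data, where 300 of 300 promoter peaks were recovered. Figures were drawn with matplotlib 3.10.9.

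Samples were grouped by the antibody in the labels. With 1 library per antibody no test was run and shares carry 95% exact binomial intervals. Members with both peaks were named, the 5 best of each subunit by mean rank in full, then those with 1 peak and those nearest to the limit of 3 kb. Members were sorted by bacterial counterpart from a hand-written list. For 1 gene of the lists, values are counted but not reported here. The members and gene lists were chosen with earlier results of these data known. Alternatives covered the window, the score, the list length, the peak width, shared starts, the overlap rule, the subunit assignment and, added after seeing the data, all listed start sites.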

Additional observations from a re-analysis of the deposited data

How the results depend on the processing

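Of 90 alternative values for the shares of members with peaks, 86 stayed within the 95% interval of the reported share, which is wide, and some could not move, as the PRMT6 shares with a shorter PARP1 list. The 4 exceptions all came from keeping the higher-scoring 50% of each list. Under it the share of members with a PARP1 peak fell to 18.2% and that of members with both peaks to 7.79%. The share of large subunit genes with a PARP1 peak fell to 16.3% and that of large subunit genes with both to 8.16%. The small subunit fell as well, to 21.4% for PARP1 and 7.14% for both, within its wider intervals. The corresponding shares of all coding genes were 14% for PARP1 and 8.99% for both, against 22.5% and 13.4% with the full lists. The share of members with both peaks thus lay below that of all coding genes, with an interval (2.91% to 16.2%) that included it. Under the other alternatives the share of members ran from 20.8% to 29.9% for PRMT6, from 27.3% to 37.7% for PARP1 and from 11.7% to 19.5% for both. Placing MRPS18A and MRPS30 with the large subunit, as their newer protein names do, gave both peaks at 17.6% of large and 19.2% of small subunit genes. No paired analysis was possible because the design holds a single library for either antibody. Peaks of the smallest width made up 6 of the 22 best PRMT6 peaks of members (27.3%), against 27.6% for all coding genes with a promoter peak. They made up 6 of the 28 best PARP1 peaks of members (21.4%), against 18.0%. The lists do not give depth, so a member without a peak was not called and is not shown to lack either protein.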

Other observations

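Some peaks lay inside member genes but outside their promoters. The number of such peaks in all coding genes is not given here, so members are not shown to have few or many. MRPS27 had a PRMT6 peak (rank 774) and a PARP1 peak (rank 1073) centred 11836 bp and 11902 bp downstream of its 5′ end, at chr5:72308126-72308683 and chr5:72308154-72308522, against rank 1578 for its PARP1 promoter peak. Apart from the MRPL34 peaks described above, the others, in MRPL23, MRPL48, MRPS27, MRPS28, MRPS31 and MRPS35, ranked between 6841 and 11439.

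The nuclear genome holds 106 pseudogene records named for members. Of these, 1 overlapped a peak in each list, MRPL45P2, with ranks 2418 (PRMT6) and 1553 (PARP1). The share over all pseudogene records is not given here, so this count is not shown to be low or high.

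The ribosomal RNA genes of mitochondrial DNA were covered by peaks in both lists. RNR1, for the small subunit, was covered over 100% of its length by PRMT6 and 78.2% by PARP1. RNR2, for the large subunit, was covered over 100% in both. The best ranks were 7 for PRMT6 at both genes, and 14 and 24 for PARP1. Each gene had 1 PRMT6 peak, and with the same rank at both this may be a single peak. Cover of the rest of mitochondrial DNA is not given here, so these genes are not shown to stand out from it.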
